A study of Oryza sativa with 20 samples.

Results

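The transcriptome of rice leaves fed on by the rice leaf folder *Cnaphalocrocis medinalis* for 6 h was compared with that of unfed leaves. The comparison used 4 libraries at 6 h and 4 at 0 h, 8 of the 20 libraries of a time course of 0, 1, 6, 12 and 24 h. All loci with a rice identifier beginning with OS entered it. Of 37830 such loci listed, 29495 had a value above 0 in some library. The 20343 loci with an FPKM (fragments per kilobase of gene, relative to the fragments of the library) of at least 0.5 in at least 4 of the 20 libraries were tested.

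At every time point the plants were of the strain Minghui 63 and 5 weeks old, and leaves of 5 plants were merged per library. At 6 h, one starved *C. medinalis* caterpillar of the third instar had been held on the second leaf from the top in a Parafilm bag. The 0 h leaves were kept in the same kind of bag without an insect. The identifiers carry no gene descriptions, so the leaf tissue was not checked against markers, and gene families are named only where the study names them. In such whole-leaf samples, fewer cells of a type and less RNA per cell cannot be told apart.

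Chewing damage in plants is followed by calcium influx, activation of mitogen-activated protein kinases (MAPKs) and synthesis of jasmonic acid (JA). JA is made from linolenic acid in the chloroplast and shortened by beta-oxidation in the peroxisome. Its isoleucine conjugate triggers the breakdown of JAZ proteins, which repress transcription factors such as MYC2. *JAZ* genes are themselves targets of MYC2, so that JA signaling also rebuilds its own repressors.

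Feeding for 6 h was accompanied by more upregulated than downregulated loci as deposited, by strong upregulation of *JAZ* genes, and by downregulation among the most abundant transcripts. In the deposited FPKM, 4364 loci (21.5% of those tested) were higher at 6 h and 1114 (5.48%) were lower, at a Benjamini-Hochberg adjusted p (FDR) under 0.05 in limma-trend on log2(FPKM + 1). After median-of-ratios scaling, which sets the typical locus of each library to the same level, 2367 (11.6%) were higher and 2361 (11.6%) lower. Scaling lowered the log2 changes, with their median going from 0.11 to 0.00. The decrease was smaller for low loci. Under a mean of 3 FPKM the median went from 0.11 to 0.04, and over 300 FPKM from -0.14 to -0.29. Scaling changed the size of the sets and gave 0 opposite calls, which largely follows from such a downward shift. All 2367 loci higher after scaling were also higher as deposited, and all 1114 loci lower as deposited were also lower after scaling. The other 1997 rises were called only as deposited, and 1247 falls only after scaling. The loci called in both fits are therefore the scaled rises and the deposited falls. Their unequal numbers come from this choice and are no separate result. The deposited counts were 2792 and 833 without 0 h replicate 1, and 2843 and 726 without 6 h replicate 2.

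A general shift separated the groups of libraries. The median log2 fold change over all tested OS loci was 0.11 as deposited, 0.00 after median-of-ratios scaling and -0.02 after upper-quartile scaling. The single 6 h libraries had medians of 0.08, 0.15, 0.13 and 0.11 relative to the 0 h mean, and the 0 h libraries had -0.05, 0.05, -0.01 and 0.01. The groups did not overlap (p = 0.029 in a two-sided exact permutation test, which can go no lower with 4 libraries a group). The libraries also differed in depth, with 18510117 to 18708503 fragments on genes at 6 h and 20793589 to 21898370 at 0 h. The part of depth in these results was not tested beyond thinning all libraries to the shallowest one, which left 4273 upregulated and 1104 downregulated loci. Below, a locus is called upregulated or downregulated without further words only where both fits called it.

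Most changes were small. A scaled log2 change beyond 1, more than 2-fold on the FPKM + 1 scale, was reached by 331 upregulated loci (1.63% of those tested) and by 67 downregulated ones (0.329%). Beyond a change of 2 there were 61 upregulated loci and 0 downregulated ones, and beyond 3 there were 18 and 0. The scale of rises and falls was thus unequal. The largest rise was 4.38 and the largest fall -1.79 on the log2 scale as deposited. Every 6 h library was above every 0 h library for 2174 of the 2367 upregulated loci, and below every 0 h library for 933 of the 1114 downregulated ones. Over all tested loci, such separation was seen upwards in 24.5% and downwards in 6.47% of the deposited values.

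The 6 h libraries did not respond to the same degree. In 6 h replicate 1, the median log2 difference of the 12 *JAZ* genes from their 0 h mean was 1.11, against 3.54, 3.26 and 2.46 in replicates 2 to 4. At 0 h the medians were -0.27, 0.14, -0.25 and 0.24. Over the 331 loci with more than 2-fold rises, 6 h replicate 1 was also the lowest, with a median difference of 1.08. Replicates 2 to 4 had 1.87, 1.68 and 1.37. For the 67 falls 6 h replicate 1 did not stand apart, with -0.97 beside -1.21, -0.92 and -1.07. Both sets were chosen on these same libraries and the medians are of deposited values, so they are a description. Without 6 h replicate 1, 4300 loci were higher and 1068 lower as deposited, and all 12 *JAZ* genes were upregulated in both fits.

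The examined genes of the *JAZ* family, the repressors of JA signaling, were upregulated. All 12 members named by the study were higher at 6 h in both fits, beside 21.5% of all tested loci as deposited and 11.6% after scaling. Their log2 fold changes ranged from 0.54 to 3.67, with a median of 2.43 as deposited and 2.31 after scaling. The family was known to respond in these libraries when it was chosen. The count rested partly on single libraries. It was 10 to 12 as deposited when each library was left out in turn, and after scaling it was 7 without 6 h replicate 2 and 7 without 6 h replicate 3. With limma-voom on the recovered fragments it was 9.

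Os09g0439200 had the largest change among the *JAZ* genes on the log2(FPKM + 1) scale, which understates changes of low genes. By the ratio of mean FPKM at 6 h to that at 0 h it was not the first. This ratio was 14.1 for Os09g0439200, against 28.6 for Os04g0395800, 19.9 for Os03g0180800 and 15.5 for Os03g0180900. The FPKM of Os09g0439200 was 116.8, 195.9, 163.1 and 103.8 at 6 h, against 8.04, 13.6, 9.70 and 9.74 at 0 h. The lowest fed library was several times the highest unfed one (log2 fold change 3.67 ± 0.33 SE as deposited and 3.53 after scaling, limma-trend FDR 3.1e-06 and 6.2e-06). It was also the only *JAZ* gene higher at 6 h than the mean of 1, 12 and 24 h in both fits (1.16 as deposited, FDR 0.0032).

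Os03g0402800 and Os07g0615200 had the highest FPKM among the *JAZ* genes at 6 h. Os03g0402800 stood at 416.6, 1020, 614.7 and 522.5 FPKM at 6 h, against 111.0, 156.1, 112.0 and 162.3 at 0 h (log2 fold change 2.18 ± 0.27, limma-trend FDR 4.5e-05). Os07g0615200 stood at 530.6, 879.0, 676.5 and 545.6 FPKM at 6 h, against 194.0, 196.1, 187.3 and 263.5 at 0 h (1.62 ± 0.18, FDR 1.7e-05). Neither gene had overlapping groups. These repressor transcripts were therefore already abundant in unfed leaves and increased further at 6 h.

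A trio of *JAZ* genes lies side by side on chromosome 3, as judged from the order of the listed identifiers. The first, Os03g0180800, had 2.43, 31.0, 37.8 and 13.7 FPKM at 6 h, against 0.232, 2.69, 0.450 and 0.898 at 0 h (log2 fold change 3.07 ± 0.80, FDR 0.011). The second, Os03g0180900, had 27.4, 157.3, 174.0 and 65.5 FPKM at 6 h, against 5.07, 5.35, 4.62 and 12.4 at 0 h (3.54 ± 0.54, FDR 0.00029). The third, Os03g0181100, had 52.6, 418.7, 210.1 and 211.7 FPKM at 6 h, against 6.55, 67.1, 9.44 and 27.1 at 0 h (3.18 ± 0.65, FDR 0.0025). In all 3 genes 6 h replicate 1 was the lowest fed library, and for the first and the third it fell below 0 h replicate 2. After scaling, the call for Os03g0180800 was lost without 6 h replicate 2 and without 6 h replicate 3.

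A pair of *JAZ* genes on chromosome 10 showed the same weak fed library. Os10g0392400 had 19.3, 128.1, 73.8 and 62.3 FPKM at 6 h, against 3.18, 10.4, 2.62 and 7.94 at 0 h (3.24 ± 0.50, FDR 0.00032). Os10g0391400 had 2.58, 48.0, 26.3 and 26.7 FPKM at 6 h, against 0.640, 10.9, 0.451 and 1.80 at 0 h (2.68 ± 0.77, FDR 0.018). For Os10g0391400 the groups overlapped, and its call was lost without 6 h replicate 2, without 0 h replicate 1 or without 0 h replicate 3. After scaling it was lost without 6 h replicate 3 or 4 as well, and with the 0 h and 6 h libraries fitted alone its FDR was 0.071. Os04g0395800 was the least abundant member, with 0.872, 8.81, 10.9 and 2.62 FPKM at 6 h, against 0.157, 0.149, 0 and 0.505 at 0 h. Its call (2.16 ± 0.64, FDR 0.022) rested on 395 fragments at 6 h and 16 at 0 h, and was lost without 6 h replicate 2 or 3 and without 0 h replicate 1 or 3, and after scaling also without 0 h replicate 2.

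The remaining *JAZ* genes changed less. Os04g0653000 had 374.2 to 496.4 FPKM at 6 h, against 233.6 to 262.8 at 0 h (0.76 ± 0.17, FDR 0.0042). Os09g0401300 had 278.2 to 336.7 FPKM at 6 h, against 201.3 to 206.0 at 0 h (0.54 ± 0.09, FDR 0.00069). Os08g0428400 had 24.6 to 36.2 FPKM at 6 h, against 18.8 to 23.2 at 0 h (0.59 ± 0.15, FDR 0.0096). The groups did not overlap in any of these genes. After scaling, however, the call for Os08g0428400 was lost without any one of 6 of the 8 libraries, all but 6 h replicate 1 and 0 h replicate 4 (FDR up to 0.11). That for Os04g0653000 was lost without 6 h replicate 2 and without 6 h replicate 3. Also after scaling, Os09g0401300 was lower at 6 h than the mean of the other feeding times (-0.33, FDR 0.0058), the direction opposite to that of Os09g0439200.

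*MYC2* (Os10g0575000), the transcription factor that JAZ proteins hold in check, was upregulated. Its FPKM was 3.14, 7.70, 4.29 and 4.50 at 6 h, against 2.00, 2.18, 1.71 and 1.97 at 0 h (log2 fold change 0.94 ± 0.17 as deposited and 0.83 after scaling, limma-trend FDR 0.0011 and 0.0022). Its level was low beside that of most of its repressors in the same libraries.

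**Figure D1:**
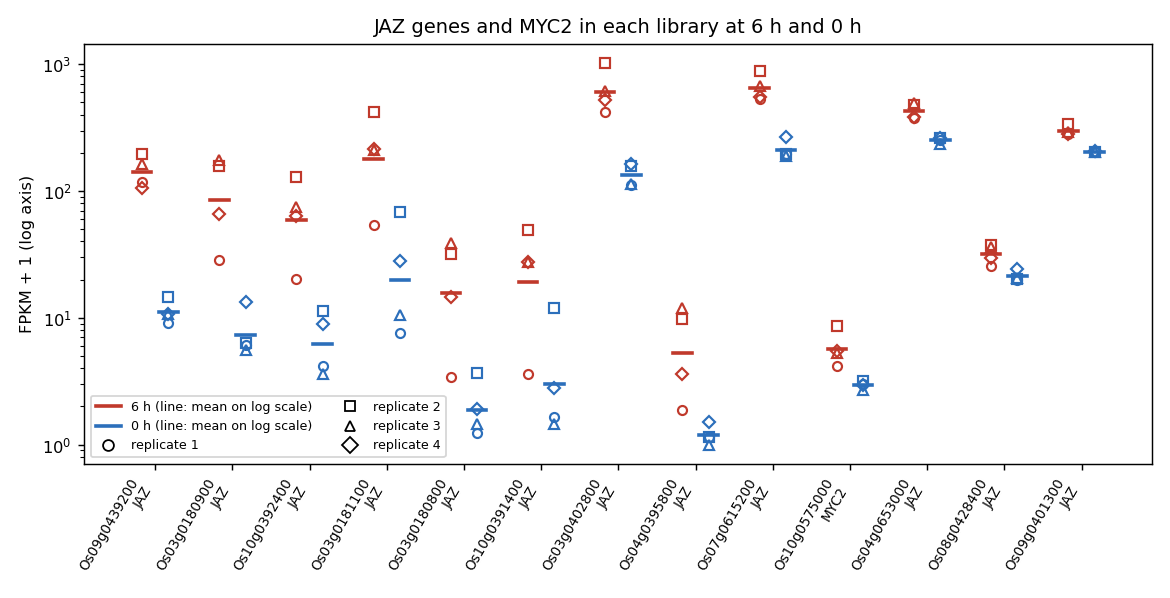
FPKM + 1 on a log axis for the 12 *JAZ* genes and *MYC2* in each library, at 6 h (red, left in each pair) and 0 h (blue), ordered by log2 fold change; symbols are replicates 1 to 4 and lines are means on the log scale. The 6 h circle (replicate 1) is the lowest 6 h symbol for every gene but Os09g0439200 and Os09g0401300. The groups separate fully for Os09g0439200, from 103.8 FPKM upwards at 6 h against 13.6 and less at 0 h.

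The genes that make JA responded unevenly along the pathway. Of 18 named genes, 17 were tested. As deposited 11 were higher and 0 lower at 6 h, where 21.5% and 5.48% of all tested loci were, with a median log2 fold change of 0.56 beside 0.11 over all loci. After scaling 9 were higher and 1 lower, where 11.6% of all loci were in each direction, with a median of 0.42 beside 0.00. The steps from LOX to OPR held 3 of the 11 rises as deposited among 8 tested genes, and those from OPCL to KAT the other 8 among 9. Whether these shares differ was not tested. The study had reported most genes of the JA pathway as induced in these same libraries. The counts here and for the steps below are therefore a description.

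Lipoxygenases (LOX) add oxygen to linolenic acid at the entry of the pathway. Of the 5 genes named by the study, 0 were upregulated in both fits, where 11.6% of all tested loci were. With so few genes, that count is near the share over all loci. Os03g0179900 had 58.0, 72.8, 67.9 and 52.3 FPKM at 6 h, against 43.2, 43.3, 47.0 and 46.2 at 0 h. It was called as deposited (0.46 ± 0.11, FDR 0.0055) but missed the threshold after scaling (0.32, FDR 0.051). Os02g0194700, the *LOX* gene with the highest FPKM, was at 211.6, 194.7, 149.4 and 190.9 FPKM at 6 h, against 242.4, 241.1, 244.0 and 247.2 at 0 h. All its fed libraries were below the unfed ones, yet the difference missed the threshold in either fit (-0.39 ± 0.18, FDR 0.13, and -0.54 after scaling, FDR 0.060). With the 0 h and 6 h libraries fitted alone it passed, with an FDR of 0.024.

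The other lipoxygenases differed in direction. Os12g0559200 had 21.3, 22.5, 33.9 and 14.9 FPKM at 6 h, against 9.02, 10.9, 7.77 and 7.72 at 0 h (1.25 ± 0.46, FDR 0.056), and with 0 h and 6 h libraries fitted alone the FDR was 0.0067. Os04g0447100 had 8.62, 33.2, 23.9 and 16.0 FPKM at 6 h, against 6.79, 12.2, 8.43 and 9.46 at 0 h (0.94 ± 0.34, FDR 0.053). Without 6 h replicate 1, its only overlapping fed library, this difference was 1.28 with an FDR of 0.0080. Os05g0304600 had 13.3 to 22.8 FPKM at 6 h, against 21.7 to 23.6 at 0 h, and was lower only after scaling (-0.42, FDR 0.037), a call that was lost without any one of 6 of the 8 libraries, 6 h replicates 1 and 3 and each of the 0 h libraries.

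Allene oxide synthase and cyclase turn the lipoxygenase product into the first cyclic JA precursor. The cyclase (*AOC*, Os03g0438100) had 206.5, 370.2, 334.0 and 240.3 FPKM at 6 h, against 111.2, 141.4, 136.6 and 143.6 at 0 h, with no overlap (1.07 ± 0.18 as deposited, FDR 0.00062, and 0.93 after scaling, FDR 0.0016). Only the synthase gene named by the study (*AOS*, Os03g0767000) was examined, and it was too low to be tested. It had 0.107, 0.541, 0.569 and 0.269 FPKM at 6 h, against 0.0241, 0.0229, 0.0234 and 0 at 0 h. These values rest on 55 fragments at 6 h and 3 at 0 h.

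OPDA reductase (OPR) reduces that cyclic precursor in the peroxisome. Os08g0459600 had 83.0, 135.5, 111.4 and 85.8 FPKM at 6 h, against 43.5, 54.7, 49.3 and 50.9 at 0 h (1.03 ± 0.14, FDR 0.00012, and 0.89 after scaling, FDR 0.00027). Os01g0369900 had 1.44 to 2.74 FPKM at 6 h, against 1.54 to 2.06 at 0 h, and was not called (0.21 ± 0.15, FDR 0.34). Its 6 h level was, however, higher than the mean of the other feeding times in both fits (0.55 as deposited, FDR 0.0028).

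OPCL ligates the precursor to coenzyme A, and acyl-CoA oxidase (ACX), the multifunctional protein (MFP) and the thiolase KAT then shorten its chain. All 4 *ACX* genes named by the study were upregulated, where 11.6% of all tested loci were. Os06g0354500 had the largest change among them, with 26.3, 32.8, 27.5 and 26.5 FPKM at 6 h, against 14.98, 18.4, 12.3 and 17.0 at 0 h (0.82 ± 0.12, FDR 0.00027, and 0.68 after scaling). Os06g0103500 had the highest level, with 203.8, 228.2, 210.3 and 202.7 FPKM at 6 h, against 147.1, 161.4, 152.1 and 159.3 at 0 h (0.44 ± 0.05, FDR 2.6e-05, and 0.30 after scaling). Os05g0163700 and Os01g0159400 rose by 0.72 and 0.64 on the log2 scale, and none of the 4 *ACX* genes had overlapping groups.

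A 6 h level above the mean of the other feeding times was not confined to the thiolase step. From OPCL to KAT, 6 of 9 tested genes were higher in this comparison and 1 lower as deposited (6 and 2 after scaling). In both fits the higher ones were all the named *ACX* genes, *MFP* Os02g0274100 and *KAT* Os02g0817700. Their differences as deposited ranged from 0.31 for *ACX* Os06g0103500 to 0.85 for *KAT* Os02g0817700. *KAT* Os02g0817700 had 148.6, 152.5, 147.8 and 157.7 FPKM at 6 h, against 92.1, 115.4, 95.4 and 108.9 at 0 h (0.56 ± 0.08, FDR 0.00015, and 0.42 after scaling). Its means at 1, 12 and 24 h were 91.0, 73.3 and 88.1 FPKM, and the 6 h level was higher than their mean in both fits (0.85, FDR 3.9e-08, and 0.71 after scaling, FDR 5.4e-08). *KAT* Os10g0457600 had 58.7, 87.6, 107.3 and 57.3 FPKM at 6 h, against 33.6, 39.6, 35.8 and 44.6 at 0 h (0.96 ± 0.19, FDR 0.0019). For this gene the difference from the other feeding times missed the threshold (0.39, FDR 0.060).

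*MFP* Os02g0274100 had 73.6 to 93.4 FPKM at 6 h, against 52.5 to 64.4 at 0 h (0.47 ± 0.09, FDR 0.0011), while *MFP* Os05g0155000 had 2.66 to 3.90 against 3.21 to 3.50 (-0.01 ± 0.09, FDR 0.96). *OPCL* Os03g0132000 had 15.1, 24.1, 22.9 and 17.2 FPKM at 6 h, against 11.9, 14.9, 12.8 and 15.8 at 0 h (0.47 ± 0.13, FDR 0.015). Its call was lost after scaling (0.33, FDR 0.061) and without 6 h replicate 2 or 3 or 0 h replicate 1, and its FDR was 0.065 with the 0 h and 6 h libraries fitted alone. JAR enzymes form the active isoleucine conjugate, and neither gene was called. Os05g0586200 had 85.6 to 120.3 FPKM at 6 h, against 87.4 to 91.8 at 0 h (0.22 ± 0.09, FDR 0.084). Os01g0221000 had 3.02 to 4.34 FPKM at 6 h, against 2.61 to 4.14 at 0 h (0.07 ± 0.17, FDR 0.80).

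Among 8 loci of calcium and MAPK-WRKY signaling, 4 were upregulated and 0 downregulated in both fits, where 11.6% and 5.48% of all tested loci were. The study named these loci for their response in the same time course, so the count is a description. Their median log2 fold change was 0.69 as deposited and 0.57 after scaling, beside 0.11 and 0.00 over all loci. After scaling, 2 were left without 6 h replicate 2, while without 0 h replicate 4 there were 6 as deposited. The calmodulin gene *CaM* (Os03g0319300), a calcium sensor, had 309.1, 377.2, 312.8 and 314.7 FPKM at 6 h, against 186.1, 206.2, 205.4 and 216.2 at 0 h (0.69 ± 0.11, FDR 0.00046, and 0.54 after scaling). Calcium-dependent protein kinases (CDPKs) pass the signal on by phosphorylation. Os08g0441100 had 6.18, 10.6, 10.2 and 6.57 FPKM at 6 h, against 4.59, 3.96, 4.25 and 3.87 at 0 h (0.83 ± 0.22, FDR 0.012). After scaling its call was lost without any one of 5 libraries, 6 h replicates 2 and 3 and 0 h replicates 2, 3 and 4 (FDR up to 0.11). Os08g0540400 had 2.30, 3.76, 2.61 and 2.01 FPKM at 6 h, against 0.855, 1.53, 1.496 and 1.15 at 0 h (0.69 ± 0.18, FDR 0.0096), and its call after scaling was lost without 6 h replicate 2 and without 0 h replicate 1. The third, Os12g0113500, had 1.22 to 1.81 FPKM at 6 h, against 1.18 to 1.94 at 0 h (-0.05 ± 0.14, FDR 0.83).

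*OsWRKY53* (Os05g0343400), a WRKY transcription factor, had 243.0, 501.2, 358.6 and 292.1 FPKM at 6 h, against 121.9, 205.2, 114.6 and 219.6 at 0 h. The groups did not overlap (1.08 ± 0.25, FDR 0.0054, and 0.94 after scaling, FDR 0.0093). The gene was also higher at 6 h than the mean of the other feeding times (0.73 as deposited, FDR 0.012). Its mean was 348.7 FPKM at 6 h, and 189.5, 143.0 and 321.6 at 1, 12 and 24 h, so the 24 h level was close to that at 6 h. *OsMPK3* (Os03g0285800), a MAPK, had 12.6, 48.8, 27.5 and 26.0 FPKM at 6 h, against 11.6, 18.3, 9.77 and 19.7 at 0 h. It missed the threshold (0.82 ± 0.31, FDR 0.066) but not without 6 h replicate 1 (1.14, FDR 0.0072) or without 0 h replicate 4 (0.96, FDR 0.049).

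For the other WRKY genes, 0 h replicate 4 was the highest unfed library. *OsWRKY24* (Os01g0826400) had 10.5, 35.8, 24.9 and 24.7 FPKM at 6 h, against 12.8, 18.5, 9.22 and 36.1 at 0 h (0.37 ± 0.36, FDR 0.51). *OsWRKY45* (Os05g0322900) had 68.5, 123.3, 94.2 and 96.4 FPKM at 6 h, against 58.1, 65.2, 55.7 and 125.0 at 0 h (0.38 ± 0.23, FDR 0.25). Without 0 h replicate 4, *OsWRKY45* was higher at 6 h by 0.64 with an FDR of 0.024.

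**Figure D2:**
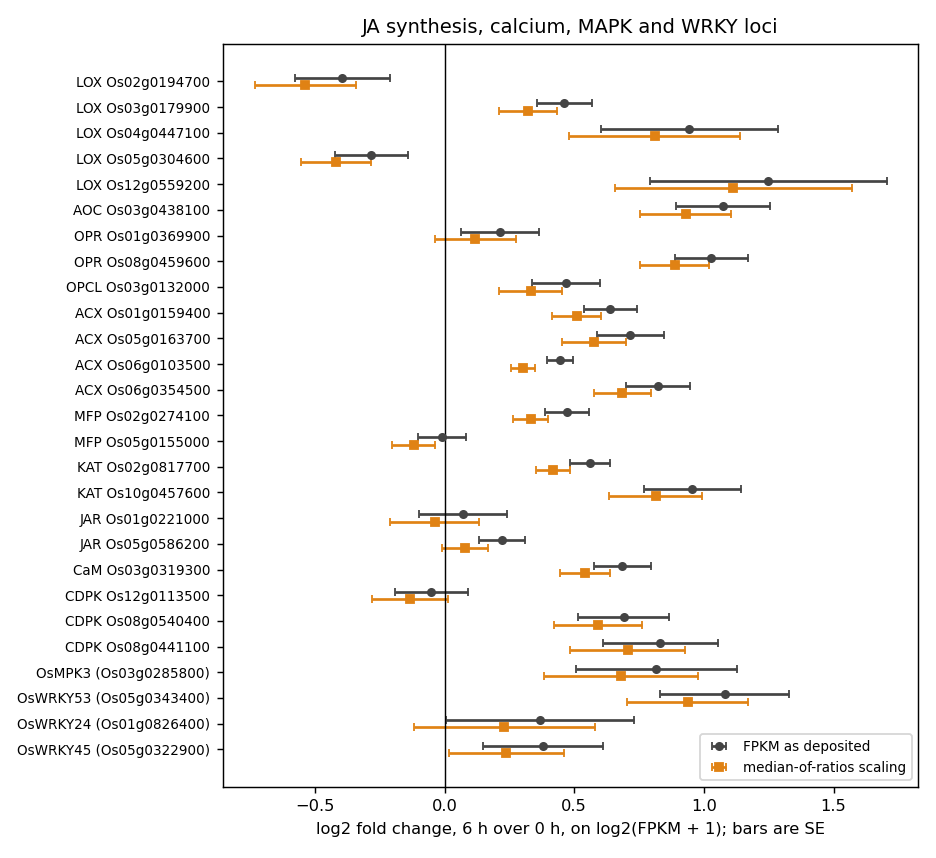
Log2 fold change of 6 h over 0 h on log2(FPKM + 1) for each tested JA synthesis, conjugation, calcium, MAPK and WRKY locus, from FPKM as deposited (grey circles) and after median-of-ratios scaling (orange squares), with bars of 1 SE. Scaling moves the points down, by less for loci of low FPKM. The *ACX* and *KAT* genes stay above 0, from 0.30 to 0.81 after scaling, while the *LOX* genes lie on both sides of 0.

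The largest changes belonged to loci without a given name, and values are shown for 2 on each side. OS03G0797400 on chromosome 3 had the largest rise, with 29.9, 45.2, 95.05 and 14.5 FPKM at 6 h, against 0.596, 1.07, 0.816 and 0.881 at 0 h. The group means were 46.2 ± 34.9 FPKM at 6 h and 0.840 ± 0.194 at 0 h (SD, n = 4 each), a ratio of 55.0 (log2 fold change 4.38 ± 0.63, limma-trend FDR 0.00019). OS03G0183500 on the same chromosome had 7.86, 77.5, 48.8 and 36.1 FPKM at 6 h, against 0.160, 1.77, 0.464 and 2.06 at 0 h (4.11 ± 0.63, FDR 0.00031). Both were nearly off in unfed leaves and varied several-fold among fed ones.

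The largest falls varied less between libraries. OS06G0253100 on chromosome 6 had 8.55, 4.32, 6.48 and 7.24 FPKM at 6 h, against 26.1, 27.6, 21.1 and 25.1 at 0 h (-1.79 ± 0.20, FDR 2.5e-05). OS01G0840100 on chromosome 1 had 25.6, 23.6, 19.0 and 17.5 FPKM at 6 h, against 67.1, 61.2, 55.5 and 63.1 at 0 h (-1.497 ± 0.16, FDR 1.4e-05). Its mean at 1 h was 122 FPKM, above that of unfed leaves, and its means at 12 and 24 h were 34.1 and 42.1. OS06G0253100 had 29.97, 5.21 and 7.34 FPKM at 1, 12 and 24 h. These 4 loci kept their calls when each of the 8 libraries was left out in turn, in both fits.

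**Figure D3:**
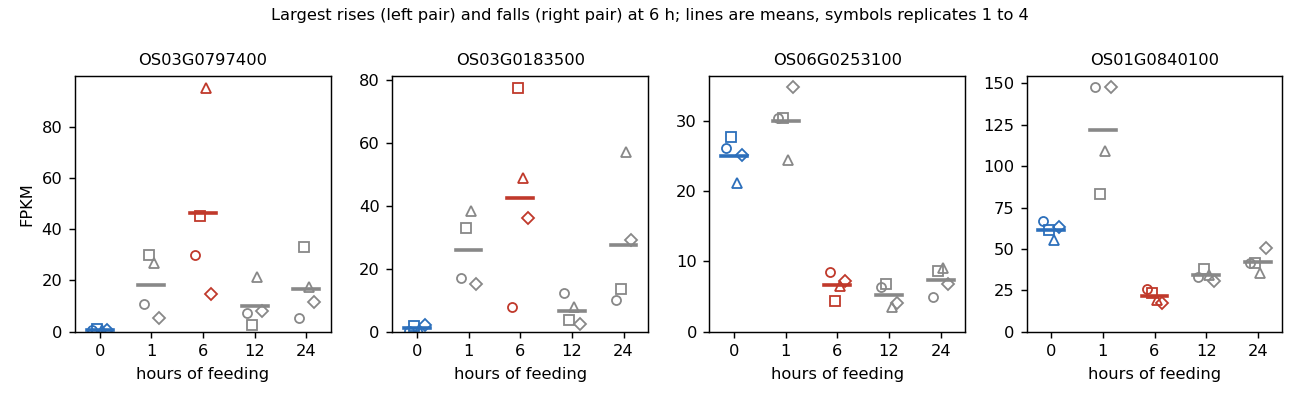
FPKM of the loci with the largest rises (left pair) and falls (right pair) in all 20 libraries by hours of feeding; symbols are replicates 1 to 4, lines are means, 6 h is red and 0 h blue. OS03G0797400 averages 46.2 FPKM at 6 h and 0.840 at 0 h with a wide spread among fed libraries, and OS01G0840100 averages 21.4 FPKM at 6 h and 61.8 at 0 h with little spread.

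The level of change depended on how abundant a transcript was. Among the 313 loci with a mean over 300 FPKM across the 20 libraries, 104 (33.2%) were downregulated and 22 (7.03%) upregulated in both fits, beside 5.48% and 11.6% of all tested loci. After scaling 42.2% of them were lower. The share downregulated in both fits was 19.4% at 100 to 300 FPKM, 9.71% at 30 to 100, 5.39% at 10 to 30, 3.35% at 3 to 10 and 1.41% under 3. The share upregulated showed no such order, being 15.8% at 100 to 300 FPKM and 7.92% under 3. Low loci are limited by counting error, which makes small changes harder to call there. Without 6 h replicate 2, 21.7% of the loci over 300 FPKM were lower as deposited.

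The abundant transcripts also took a smaller part of each fed library. Loci over 300 FPKM held 32.8, 29.1, 30.9 and 32.3% of the fragments at 6 h, against 37.8, 35.0, 36.7 and 35.5% at 0 h. The 10 most abundant loci held 7.60 ± 0.61% at 6 h and 10.2 ± 0.43% at 0 h, and the 100 most abundant 21.6 ± 1.5% and 26.3 ± 1.0% (SD, n = 4 each). None of these 3 shares overlapped between the groups (two-sided exact permutation tests, p = 0.029 each, the smallest possible, and still 0.029 after Benjamini-Hochberg adjustment over the 4 measures per library). FPKM is relative to the total, so a smaller part for abundant transcripts goes with a higher FPKM for others.

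**Figure D4:**
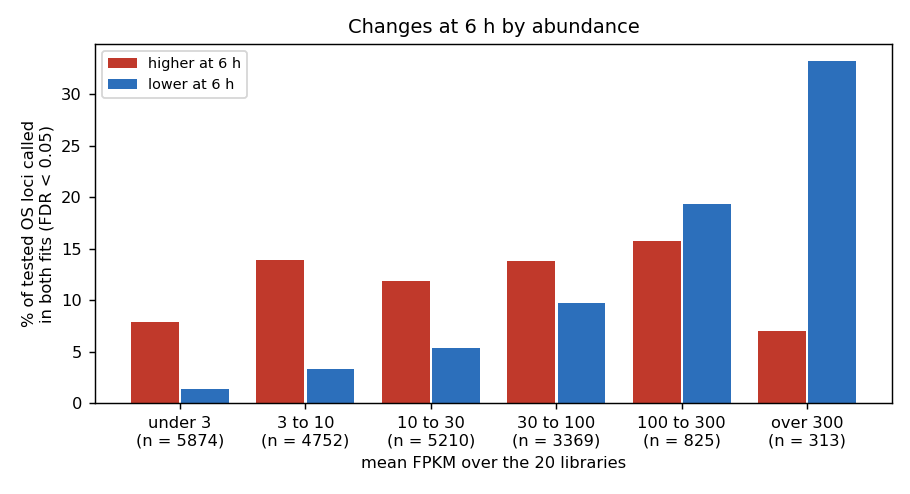
Percentage of tested OS loci called higher (red, left) or lower (blue, right) at 6 h in both fits, by mean FPKM over the 20 libraries, with the number of loci in each class. The downregulated share is 1.41% under 3 FPKM and 33.2% over 300 FPKM, where only 7.03% are upregulated.

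Length and chromosome separated the changed loci less. The median length was 1208 bases for the more than 2-fold rises and 1168 for the falls, against 1453 for all tested loci. In the fifth of loci with the greatest length 7.95% were upregulated, against 11.6% overall. Upregulated shares ranged from 9.74% to 13.9% over the 12 chromosomes, and downregulated ones from 4.06% to 6.94%. Of the 331 strong rises, 1.63% of tested loci, 44 lay in 20 runs of neighbouring tested loci. Among these were the *JAZ* trio and a run of 4 on chromosome 1. The 67 strong falls, 0.329% of tested loci, held 6 loci in 3 pairs. Whether neighbours shared a direction more often than by chance was not tested. Only 3 loci had at most 3 fragments over the unfed libraries and at least 10 in every fed one, with 14 to 120 fragments per fed library, and 0 showed the reverse.

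The 6 h leaves were lastly compared with the mean of 1, 12 and 24 h, a contrast that holds no unfed library. In it 5448 loci (26.8%) were higher and 1581 (7.77%) lower at 6 h as deposited, and 2656 (13.1%) and 3038 (14.9%) after scaling. Of the 331 strong rises, 135 were also higher than the other feeding times in both fits, and of the 67 strong falls 54 were also lower. Both sets were chosen for their 6 h level, which this contrast shares, so the counts are a description. The median log2 differences of the rises from 0 h at 1, 6, 12 and 24 h were 0.70, 1.46, 0.53 and 1.17, and those of the falls were -0.18, -0.98, -0.28 and -0.43, all set against the same unfed libraries. In the contrast with the other feeding times, 8 of 17 JA synthesis genes were higher and 1 lower as deposited (7 and 3 after scaling). Of 12 *JAZ* genes, 1 was higher and 0 lower (1 and 1 after scaling). The median difference was nevertheless larger for the *JAZ* genes, 0.59 against 0.32 as deposited and 0.45 against 0.18 after scaling.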

How the data were processed

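The authors aligned filtered paired-end reads to IRGSP-1.0 with HISAT2, counted them per gene with featureCounts and deposited FPKM, which are relative to each library's total and carry no further scaling. The authors tested differential expression with DESeq2, which was not used here. FPKM were turned back into whole fragments, which succeeded for 35755 of 35755 identifiers above 0 (100%) with a tolerance of 0.01. The 20 libraries were fitted together with limma-trend (limma 3.58.1, R 4.3.3) on log2(FPKM + 1), which understates changes of low genes, over the 24058 identifiers of any kind that reached 0.5 FPKM in 4 libraries or more, with Benjamini-Hochberg adjustment over all of them. Summaries and figures used Python 3.11.15, numpy 2.4.6, pandas 2.3.3 and matplotlib 3.10.9. On simulated libraries for 6 h minus 0 h (24013 genes), 75% of 100 genes changed by 1 on the log2 scale and 39.4% of 99 changed by 0.5 were called, and 6.56% of calls were unchanged genes. The simulation drew genes independently, with few changed genes and no general shift, and used only the fit without scaling. These rates therefore need not hold for the real libraries. Alternatives were other scalings, pseudocounts, filters and tests, a replicate block and each library left out. Thinning, and scaling combined with the block or with a library left out, were added after seeing the data.

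Members, lists and tests were chosen with earlier results of these data known. Named loci are those the study names, and the 2 largest rises and falls with an FDR under 0.05 in both fits, at least 10 fragments per library on average and no overlap of libraries. Keyword lists of functions were planned but not used, since the RefSeq table at hand (ASM3414082v1) matched 1 identifier. Sequences are therefore not shown. Fold changes and FDR are as deposited unless said otherwise, and all tests are two-sided. Tests measure the spread between pools of plants.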

Additional observations from a re-analysis of the deposited data

Results flagged for a closer look

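In 6 of 98 groups of 4 values examined, 1 library lay far from the other 3, about as many as chance gives (1 in 20 groups). The value of *OsWRKY45* (Os05g0322900) in 0 h replicate 4 was 125.0 FPKM, with 55.7 to 65.2 in the other unfed libraries. The same library was high for the *JAZ* genes Os03g0180900, at 12.4 FPKM beside 4.62 to 5.35, and Os07g0615200, at 263.5 FPKM beside 187.3 to 196.1. It was low for *AOS* (Os03g0767000), listed at 0 beside 0.0229 to 0.0241 FPKM, which is a difference of 1 fragment. In 0 h replicate 2, *JAZ* Os10g0391400 was at 10.9 FPKM beside 0.451 to 1.80. In 6 h replicate 2, *CaM* (Os03g0319300) was at 377.2 FPKM beside 309.1 to 314.7.

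Calls were also made among identifiers outside the OS loci, where the balance of directions changed with the scaling. Of the OS loci, 11.6% were higher and 11.6% lower after scaling. Of 701 tested identifiers whose prefix marks them as outside the annotation, 23 (3.28%) were higher and 60 (8.56%) lower at 6 h after scaling (limma-trend, FDR under 0.05), while 50 were higher and 24 lower as deposited. Of 3004 tested identifiers beginning with EPlOSAG, 39 (1.3%) were higher and 91 (3.03%) lower after scaling, and 67 and 69 as deposited.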

How the results depend on the processing

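With upper-quartile scaling, 2179 OS loci were higher and 2643 lower at 6 h than at 0 h, and limma-voom with size factors gave 2555 and 2461, beside 2367 and 2361 with median-of-ratios scaling. A minimum log2 change of 1 left 482 and 32, with 2 JA synthesis genes, 1 signaling gene and 1.28% lower among loci over 300 FPKM. The median log2 fold change was -0.017 with upper-quartile scaling, 0.0023 with median-of-ratios scaling and 0.045 with no filter. Against the other feeding times, the counts were 2656 and 3038 with median-of-ratios scaling, 2631 and 3023 with upper-quartile scaling, and 2942 and 3026 with limma-voom and size factors.

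Leaving out each library in turn gave 2792 to 4300 higher and 726 to 1068 lower loci as deposited, and 1428 to 2246 and 1521 to 2340 after scaling. Over 300 FPKM the lower share was 21.7% to 31.3%, *JAZ* genes after scaling numbered 7 to 12 and signaling genes 2 to 5. The smallest counts of loci came without 6 h replicate 2 or 0 h replicate 1. The cause was not tested.

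Among the named loci, signs turned only for 3 that were called in no fit. *JAR* Os01g0221000 was -0.039 with median-of-ratios scaling, -0.058 with upper-quartile scaling, -0.050 with limma-voom and size factors, and -0.024 to 0.15 with libraries left out. *MFP* Os05g0155000 was 0.023 after thinning and -0.072 to 0.068 with libraries left out, and *CDPK* Os12g0113500 -0.13 to 0.011.

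For equal replicate numbers, deviations of the 6 h and 0 h libraries correlated at 0.27, 0.19, -0.07 and -0.14. For unequal numbers the correlations ran from -0.24 to 0.26. Whether equal numbers mark pairs was not tested. The replicate block gave 4169 and 1081 loci, and called *LOX* Os04g0447100 (FDR 0.038) and Os12g0559200 (FDR 0.036). With limma-voom on recovered fragments, *JAZ* Os03g0180800, Os04g0395800 and Os10g0391400 missed the threshold (FDR 0.11, 0.077 and 0.063).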
